A study of Mus musculus with 16 samples.

Results

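Transcripts of 9 transient receptor potential (TRP) channel genes of sensory neurons were followed in the dorsal root ganglia (DRGs) of nerve-injured and sham-operated mice given desipramine (DMI) or saline. The genes are Trpv1, Trpv2, Trpa1, Trpm8, Trpm3, Trpm2, Trpm4, Trpc1 and Trpc5. They were chosen by name and found by matching Ensembl identifiers to symbols, and all 9 were found among the 52636 genes of the count files. All 9 also passed the filter on low counts, which left 21371 genes for testing.

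DRG RNA was sequenced in 16 libraries, each from 1 male C57Bl6/J mouse, and 4 mice made up each group, named Sham-Saline and SNI-Saline for the vehicle and Sham-DMI and SNI-DMI for the drug. The mice were 3 to 4 months old and carried no stated mutation or transgene. In spared nerve injury (SNI) as done here, the peroneal and sural branches of the left sciatic nerve were tied and cut and the tibial branch was left intact, so the lumbar DRGs held injured and uninjured neurons together. Sham mice had surgery without the nerve injury. DMI, a tricyclic antidepressant that blocks noradrenaline uptake, was injected into the abdomen over 3 weeks at 15 mg/kg, with 2 injections a day, starting 4 weeks after surgery by the labels (the study's methods also give this interval in months), and the other groups received saline on the same schedule. Spinal cord is the tissue and dorsal root ganglia the cell type in the labels. The sensory neuron genes Prph (median 1655 CPM, counts scaled to a common library size) and Calca (838 CPM) were high. By contrast, 9 spinal cord genes, among them Gad1, Slc6a5, Aqp4 and Slc1a2, summed to between 14.6 and 28.6 CPM.

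TRP channels are cation channels built from 4 subunits, and many of them open on heat, cold or irritant chemicals and depolarize the ending of the sensory neuron. In DRG neurons TRPV1, TRPA1 and TRPM3 together carry the response to noxious heat, TRPM8 carries the response to cool and menthol, and TRPA1 also responds to mustard oil and other electrophiles. Their activity is set by phosphoinositides, by protein kinase C downstream of inflammatory receptors, and by partner proteins such as Pirt.

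Libraries held 41194238 to 73920332 read pairs on genes, so each member except Trpc5 rested on at least 1523 counts in every library. Trpc5 rested on 25 to 150 counts. By the labels, library numbers run from 17 to 24 for DMI and from 33 to 40 for saline, and within these blocks each surgery group has consecutive numbers. An effect of that order therefore cannot be told apart from those of DMI and of SNI. Sham-DMI replicate 2 stood apart from its group for several members, and results that rest on it are given with and without it. Replicate 1 was also at an end of that group for most members, highest for 4 and lowest for 4. Values are in CPM after trimmed-mean (TMM) scaling, groups were compared with edgeR's quasi-likelihood test on all 16 libraries, and a gene was called at a Benjamini-Hochberg adjusted p under 0.1 over all tested genes. In RNA from whole ganglia, fewer neurons of a type and less RNA per neuron cannot be told apart.

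Trpv1 and Trpm2 varied together from mouse to mouse, and the 250 bases before a RefSeq start site of each are printed so that these windows can be set side by side. Windows were available for 7 of the 9 members (RefSeq, GRCm38.p6). Capitals mark matches, on either strand, to 5 motifs that were searched: the GC box GGGCGG, the core TGACG of the cyclic AMP response element (CRE), the RUNX core TGTGGT, the AP-1 site TGANTCA and the TATA box TATAAA. The Trpv1 window lies at chr11:73233899-73234148 on the plus strand and the Trpm2 window at chr10:77969873-77970122 on the minus strand, both written 5′ to 3′.
Trpv1: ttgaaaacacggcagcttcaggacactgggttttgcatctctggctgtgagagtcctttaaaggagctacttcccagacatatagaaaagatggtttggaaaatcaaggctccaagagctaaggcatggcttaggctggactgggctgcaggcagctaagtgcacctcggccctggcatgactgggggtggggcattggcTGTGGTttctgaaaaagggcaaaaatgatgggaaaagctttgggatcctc
Trpm2: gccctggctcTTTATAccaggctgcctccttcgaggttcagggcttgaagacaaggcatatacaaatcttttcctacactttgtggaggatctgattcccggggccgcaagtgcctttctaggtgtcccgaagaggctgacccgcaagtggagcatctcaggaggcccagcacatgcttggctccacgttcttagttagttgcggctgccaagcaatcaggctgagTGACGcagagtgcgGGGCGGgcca
The Trpv1 window held 1 match, the RUNX core, whose first base lay 50 bases before the start, and 14.04% of all 32817 promoter windows of this length hold that motif. The Trpm2 window held a GC box (in 32.72% of all windows), a CRE core (17.75%) and a TATA box on the opposite strand, TTTATA (12.37%), which lay 240 bases before the start. None of the 5 motifs was found in both windows. By the gene coordinates used here, the Trpv1 window lay upstream of its gene, whereas the Trpm2 window lay inside its gene. The windows are thus not like regions of these genes. A match is only a run of letters and not a measured binding site.

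The order of the members by level was compared as CPM per kb of exon, since the exons differ from 3681 bases in total (Trpv1) to 24437 (Trpm3). Trpv1, the capsaicin and heat receptor, was the most abundant in every group, at 66.4 ± 12.3 CPM per kb (SD, n = 4) in Sham-Saline. It made up between 40.4% and 56.9% of the summed level of the 9 genes over the 16 libraries. Trpv2, found mainly in larger myelinated neurons, followed at 21.7 ± 1.34, then Trpa1 at 18.4 ± 0.630 and Trpm8 at 12.8 ± 1.41.

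The ranges of these 4 genes did not overlap in Sham-Saline, SNI-Saline or SNI-DMI, whereas those of Trpa1 and Trpm8 overlapped in Sham-DMI, where replicate 2 alone reached 15.5 CPM per kb for Trpm8. In Sham-Saline, Trpc1, a widely expressed channel of the canonical subfamily (5.52 CPM per kb), Trpm2, opened by ADP-ribose and oxidative stress (4.98), and Trpm4, a calcium-activated sodium-permeable channel (3.90), came next. The ranges of Trpc1 and Trpm2 and those of Trpm2 and Trpm4 overlapped, so the order of these neighbours did not stand beyond their spread. Trpm3 (2.35 CPM per kb) and Trpc5, a cold-sensitive channel (0.366), came last. With the length of the longest transcript in place of the whole exon length, Trpm4 came before Trpc1 and Trpm2, and the other 6 ranks stayed.

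**Figure D1:**
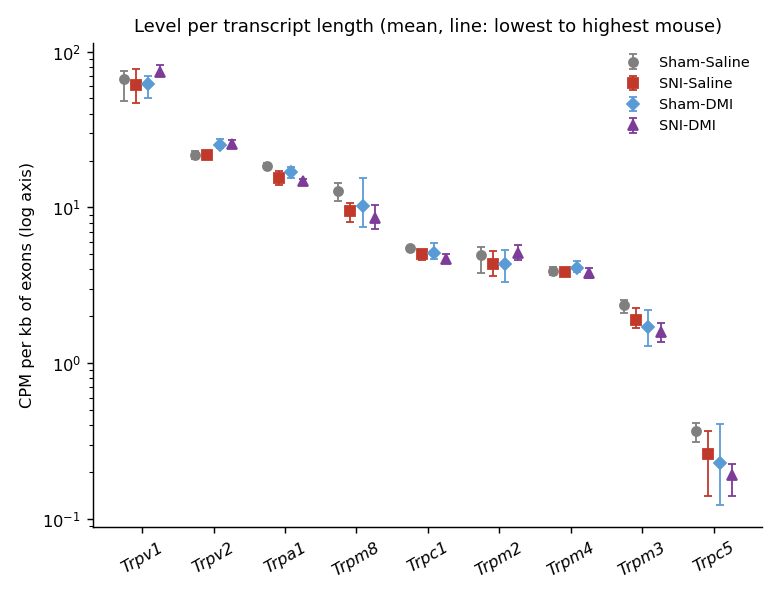
Level of each member per exon length in the 4 groups, as CPM per kb on a log axis. Symbols are means of 4 mice and lines run from the lowest to the highest mouse. Trpv1 lay highest in every group and Trpc5 lowest, and the lines of Trpc1 and Trpm2 overlapped in every group.

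Injury was assessed by comparing SNI-Saline with Sham-Saline. Trpa1 fell, and Trpm8, Trpm3 and Trpc1 had lower means without passing the test, while the levels of Trpv2 and Trpm4 lay within 2% of those in sham mice. Trpa1 was the 1 member called of 9, where 12% of all tested genes were called and 6.18% were called as lower. The fitted change was negative for all 9 members, with a median log2 fold change of -0.20 against -0.00060 over all genes. The signs of Trpv2 and Trpm4 were near 0 and turned with another scaling, the former with upper-quartile normalization (0.0065) and the latter with GC content and length trends removed (0.025).

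Trpa1 (ENSMUSG00000032769, chr1:14872648-14918862, minus strand) encodes the irritant receptor. It stood at 77.9, 78.4, 75.8 and 82.3 CPM in the Sham-Saline mice and at 59.3, 67.9, 73.5 and 62.5 CPM in the SNI-Saline mice. Every injured mouse was below every sham mouse, and SNI-Saline replicate 3 came closest to the sham range. The log2 fold change was -0.26 (SE 0.0619, adjusted p = 0.0273), from 78.6 ± 2.68 to 65.8 ± 6.25 CPM (SD, n = 4). The call did not stand without SNI-Saline replicate 1 (-0.20, adjusted p = 0.11), and it held in the fits without each other library and in the 8 alternatives (adjusted p between 0.00446 and 0.0628). With the pan-neuronal level as a covariate the change was -0.25 (adjusted p = 0.0298).

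Trpm8 (ENSMUSG00000036251, chr1:88277661-88389293, plus strand), the cold and menthol receptor, stood at 68.1, 52.4, 63.0 and 58.7 CPM in the Sham-Saline mice and at 44.6, 50.9, 46.9 and 38.3 CPM in the SNI-Saline mice. Trpa1, Trpm8 and Trpc1 were the 3 members whose groups did not overlap, all lower, as was the case for 15.4% of all genes (7.74% lower). The log2 fold change of Trpm8 was -0.42 (SE 0.171, adjusted p = 0.144). Trpm8 was thus the 1 member inside the study's cut-offs (nominal p under 0.05, log2 fold change of 0.32 or more in size), which 7.15% of all genes met, without being called over all genes. It was called when only the 8 libraries of the comparison were fitted (-0.42, adjusted p = 0.0149), without the filter on low counts (-0.42, adjusted p = 0.0845), and without Sham-DMI replicate 1 (-0.42, adjusted p = 0.0925) or replicate 2 (-0.41, adjusted p = 0.029), which are not in this comparison but enter the shared estimate of the spread.

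Trpm3 (ENSMUSG00000052387, chr19:22139046-22995410, plus strand), a heat and pregnenolone sulphate receptor, stood at 61.6, 51.6, 62.3 and 54.7 CPM in the Sham-Saline mice and at 41.3, 47.4, 55.6 and 41.4 CPM in the SNI-Saline mice. SNI-Saline replicate 3 lay within the sham range and the other 3 injured mice below it, for a log2 fold change of -0.31 with an SE of 0.132 (adjusted p = 0.165). It was called with DESeq2 (-0.31, adjusted p = 0.0999), with the 8 libraries alone (-0.31, adjusted p = 0.0533), without SNI-Saline replicate 3 (-0.40, adjusted p = 0.0834) and without Sham-DMI replicate 1 (-0.31, adjusted p = 0.0868). With GC content and length trends removed it was -0.13 (adjusted p = 0.427).

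Trpc1 was between 43.3 and 45.0 CPM in Sham-Saline and between 37.1 and 42.2 CPM in SNI-Saline, so these groups did not overlap, yet the log2 fold change was only -0.14 (SE 0.0679, adjusted p = 0.23). Trpc5 had a log2 fold change of -0.48 with an SE of 0.32 (adjusted p = 0.398), which is the widest error of the 9, and the groups overlapped. Trpv1 was at 179, 252, 269 and 278 CPM in Sham-Saline and at 253, 285, 189 and 173 CPM in SNI-Saline. These groups covered almost the same range, and the log2 fold change of -0.12 had a 95% interval from -0.43 to 0.20.

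Beside these values, the injured neuron list (8 genes such as the injury-induced transcription factors and peptides) summed to 294 to 325 CPM in Sham-Saline and to 483 to 545 CPM in SNI-Saline, with 7 of 8 genes called as higher. The macrophage list summed to 135 to 158 CPM and to 175 to 320 CPM, with 5 of 8 genes higher. For the non-peptidergic nociceptor list, 3 of 6 genes were called as lower, while the summed levels overlapped (1998 to 2418 CPM and 1826 to 2043 CPM). The pruriceptor list was lower without overlap (119 to 151 and 110 to 118 CPM, 1 of 4 genes called as lower), and the satellite glia list was higher without overlap (2379 to 2642 and 2749 to 3126 CPM, 1 of 6 genes called as higher). The pan-neuronal list had 2 of 10 genes higher and 2 lower. The part of these lists in the lower Trpa1 level was not tested, apart from the pan-neuronal covariate given above.

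**Figure D2:**
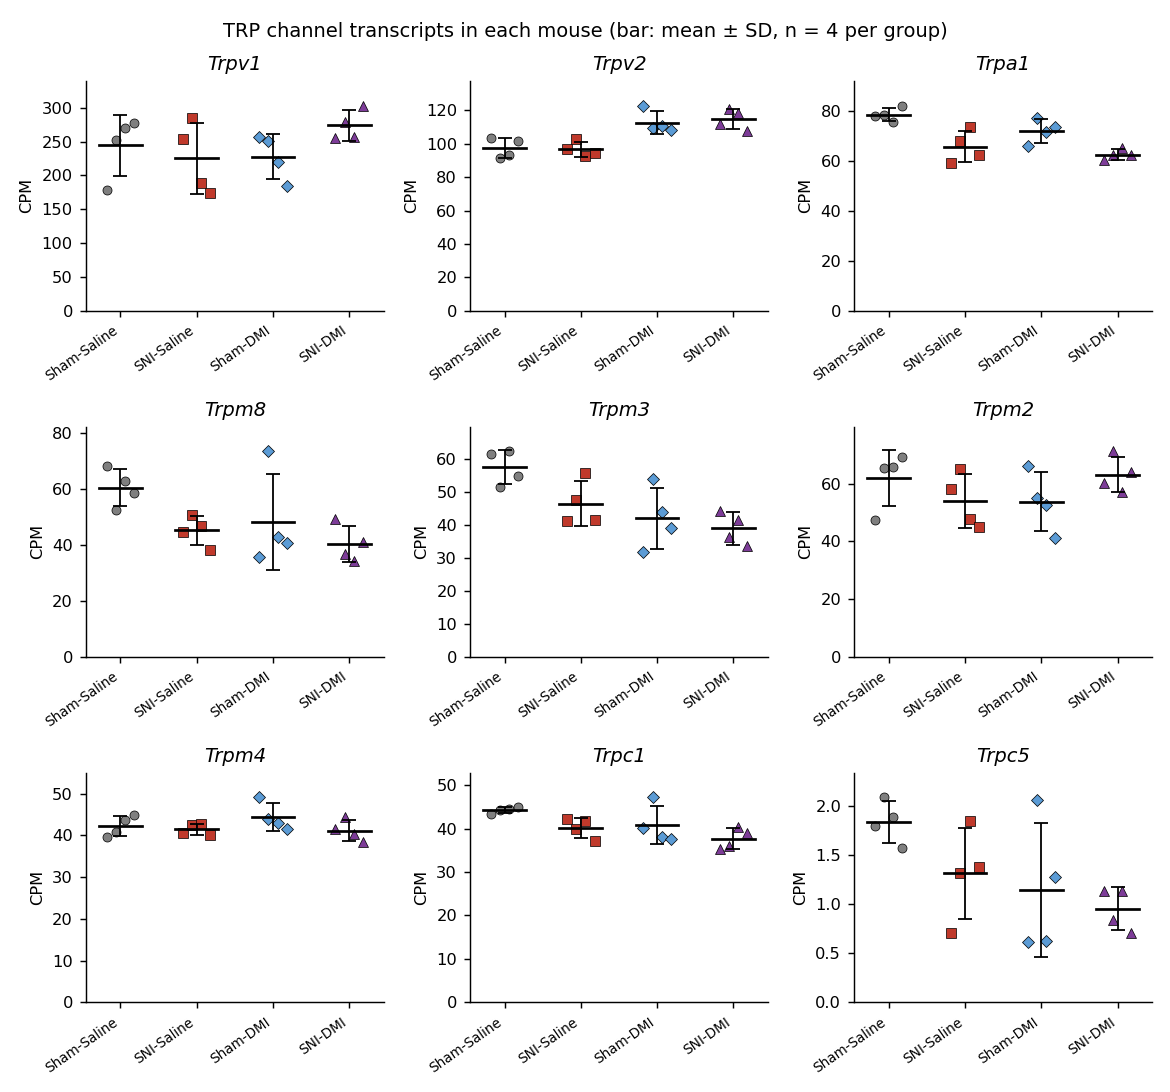
CPM of each member in each mouse, by group. Points are mice, and bars are the mean ± SD of 4 mice. Trpa1 lay lower in all SNI-Saline mice than in all Sham-Saline mice, Trpv2 lay higher in all DMI mice than in all saline mice, and Trpm8 of Sham-DMI replicate 2 (73.5 CPM) lay above all other mice.

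The effect of DMI in injured mice was assessed by comparing SNI-DMI with SNI-Saline. Trpv2 rose, and no other member passed the test. This was 1 member called of 9, where 2.93% of all genes were called and 1.32% were called as higher. Of the 9 fitted changes 3 were positive and 6 negative, and their median of -0.072 stood beside -0.0047 over all genes.

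Trpv2 (ENSMUSG00000018507, chr11:62574486-62600515, plus strand) stood at 97.0, 103, 92.8 and 94.2 CPM in the SNI-Saline mice and at 112, 121, 118 and 108 CPM in the SNI-DMI mice. All DMI mice were above all saline mice, and the groups of 13.3% of all genes did not overlap in this comparison. The log2 fold change was 0.25 (SE 0.0568, adjusted p = 0.0674), from 96.8 ± 4.57 to 115 ± 6.00 CPM. The call was lost with GC content and length trends removed (0.22, adjusted p = 0.127). It was also lost without SNI-Saline replicate 1 (0.26, adjusted p = 0.133), 3 (0.22, adjusted p = 0.225) or 4 (0.23, adjusted p = 0.144) and without SNI-DMI replicate 1 (0.27, adjusted p = 0.122), 2 (0.22, adjusted p = 0.224) or 3 (0.25, adjusted p = 0.153).

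Trpv1 (ENSMUSG00000005952, chr11:73234292-73261242, plus strand) was at 256, 279, 257 and 303 CPM in the SNI-DMI mice, the highest group mean of the 4 (274 ± 22.3 CPM). Of the SNI-Saline mice, the 1 at 285 CPM lay inside that range, the 1 at 253 CPM just below it and those at 189 and 173 CPM far below it, and the fitted log2 fold change was 0.28 (SE 0.150, adjusted p = 0.32). Trpm2 had a log2 fold change of 0.23 with an SE of 0.139 (adjusted p = 0.392).

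For Trpa1, which fell with injury, and for Trpm8 and Trpm3, whose lower means had not passed that test, no rise with DMI was found. Trpa1 was at 60.3, 62.3, 65.3 and 62.5 CPM in SNI-DMI, inside the SNI-Saline range (log2 fold change -0.072, SE 0.0621, adjusted p = 0.564). Its sign turned with GC content and length trends removed (0.052). Trpm8 (49.2, 36.8, 34.4 and 40.9 CPM) had a log2 fold change of -0.16 with an SE of 0.172 (adjusted p = 0.642) and Trpm3 (44.3, 36.2, 41.5 and 33.6 CPM) one of -0.26 (SE 0.133, adjusted p = 0.31). With 95% intervals of -0.20 to 0.059 for Trpa1, -0.52 to 0.20 for Trpm8 and -0.53 to 0.023 for Trpm3, a rise as large as the difference after injury lay outside the interval for each of the 3 genes. The comparisons of injury and of DMI share the SNI-Saline mice, so their values are not independent. Beside the values of this comparison, the neutrophil list summed to 15.4 to 50.7 CPM in SNI-Saline and to 4.45 to 13.7 CPM in SNI-DMI, with 2 of 7 genes called as lower and a median log2 fold change of -1.43. The satellite glia list had 1 of 6 genes called as higher, and the B cell and spinal cord lists each had 1 gene called as lower. No other marker list, the pan-neuronal and injured neuron lists among them, had a gene called. Their part in the members' values was not tested, apart from the pan-neuronal covariate, with which the rise of Trpv2 was 0.23 (adjusted p = 0.0848).

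In uninjured mice, DMI was assessed by comparing Sham-DMI with Sham-Saline. Trpv2 rose and Trpm3 fell. These were 2 members called of 9, where 23.4% of all genes were called, 11.6% as higher and 11.9% as lower, so the share of members called was close to that of all genes. The median log2 fold change of the members was -0.12 and that of all genes -0.021.

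Trpv2 stood at 103, 91.2, 93.2 and 101.4 CPM in the Sham-Saline mice and at 123, 109, 110 and 108 CPM in the Sham-DMI mice. Trpv2 was the 1 member whose groups did not overlap here, beside 17.1% of all genes. The log2 fold change was 0.21 (SE 0.0568, adjusted p = 0.0173). This call held in all 8 alternatives (adjusted p between 0.00353 and 0.0523) and without each of the 16 libraries in turn (between 0.00915 and 0.0531). Sham-Saline and Sham-DMI share no mouse with the injured groups, and over both surgeries the DMI mice ran from 108 to 123 CPM and the saline mice from 91.2 to 103 CPM.

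Trpm3 stood at 31.6, 53.8, 43.7 and 38.9 CPM in the Sham-DMI mice. Replicate 2 lay inside the Sham-Saline range of 51.6 to 62.3 CPM and the other 3 mice below it. The log2 fold change was -0.45 (SE 0.132, adjusted p = 0.0263), from 57.5 ± 5.24 to 42.0 ± 9.29 CPM. Trpm3 was also the 1 member inside the study's cut-offs, which 11.5% of all genes met. The change was smaller with GC content and length trends removed (-0.22, adjusted p = 0.0876), and it was -0.49 (adjusted p = 0.0382) with the pan-neuronal level as a covariate. Trpm3 has the largest total exon length of the members, and its longest transcript has a GC content of 45.6%. Exons of Trpm3 overlap those of 2 other genes, of which the antisense gene Gm27151 shares 277 bases, and the use of strand in counting is not stated.

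Trpm8 showed how much 1 library weighed in this comparison. The Sham-DMI mice were at 35.6, 73.5, 42.9 and 40.6 CPM, so that replicate 2 was above every Sham-Saline mouse and the other 3 below every one. With all 4 mice the log2 fold change was -0.33 (SE 0.171, adjusted p = 0.206), and without replicate 2 it was -0.59 (adjusted p = 0.00234). Replicate 2 was also the highest of its group for Trpa1, Trpm3, Trpc1 and Trpc5, and for each of these 4 genes too the other 3 Sham-DMI mice lay below all Sham-Saline mice. The share of all genes with this pattern is not given here, so it is not read as a result about the members. Without replicate 2, Trpc1 (-0.18, adjusted p = 0.0332) and Trpc5 (-1.09, adjusted p = 0.0153) were called as well, and Trpm3 was at -0.58. This made 5 members called in place of 2, and the share of all genes called in that fit is not given here. Replicate 2 was singled out for its high values of these same genes, so the added calls and the lack of overlap only describe its weight.

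Sham-DMI replicate 2 had the largest library of all, and it differed from the other 3 Sham-DMI mice in several marker lists. The Schwann cell list summed to 3671 CPM in it and to 4494 to 6485 CPM in the others, the fibroblast list to 559 against 617 to 780.0 CPM, and the macrophage list to 102 against 134 to 148 CPM. The red cell list was higher, at 107 against 27.7 to 43.6 CPM, and so was the non-peptidergic nociceptor list, at 2244 against 1967 to 2189 CPM. The neutrophil list (17.7 against 3.80 to 8.59 CPM), the pruriceptor list (134 against 120 to 132) and the spinal cord list (20.4 against 14.6 to 17.8) were also higher. The B cell list was lower (31.3 against 40.3 to 46.5 CPM). The pan-neuronal list was within the range of the others. The part of these differences in the members' values was not tested.

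Trpa1 had a log2 fold change of -0.12 with DMI in sham mice (SE 0.0619, adjusted p = 0.186) and Trpc1 one of -0.12 (SE 0.0680, adjusted p = 0.255). Both signs turned with GC content and length trends removed (0.036 and 0.034). Trpv1 (-0.10, adjusted p = 0.7) and Trpm4 (0.072, adjusted p = 0.458) lay within the spread of the mice. Beside these values, the summed pan-neuronal list was higher in every Sham-DMI mouse (9269 to 10932 CPM) than in every Sham-Saline mouse (8844 to 9139 CPM), with 5 of 10 genes called as higher and 1 as lower. The injured neuron list also had 5 of 8 genes higher and the peptidergic nociceptor list 2 of 6. Of the neutrophil list, 6 of 7 genes were called as lower (median log2 fold change -1.60). Its sums were 10.6 to 39.7 CPM in Sham-Saline and 3.80 to 17.7 CPM in Sham-DMI, where replicate 2 was highest. The spinal cord list was lower without overlap (22.2 to 23.7 and 14.6 to 20.4 CPM), with 1 of 5 tested genes called as lower. In that list the highest medians over all mice were those of Aqp4 (10.6 CPM) and Slc1a2 (8.11 CPM), beside 0.666 CPM for Gad1. The part of these lists in the members' values was not tested beyond the covariate given for Trpm3, and with the same covariate the change of Trpv2 was 0.19 (adjusted p = 0.0523).

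**Figure D3:**
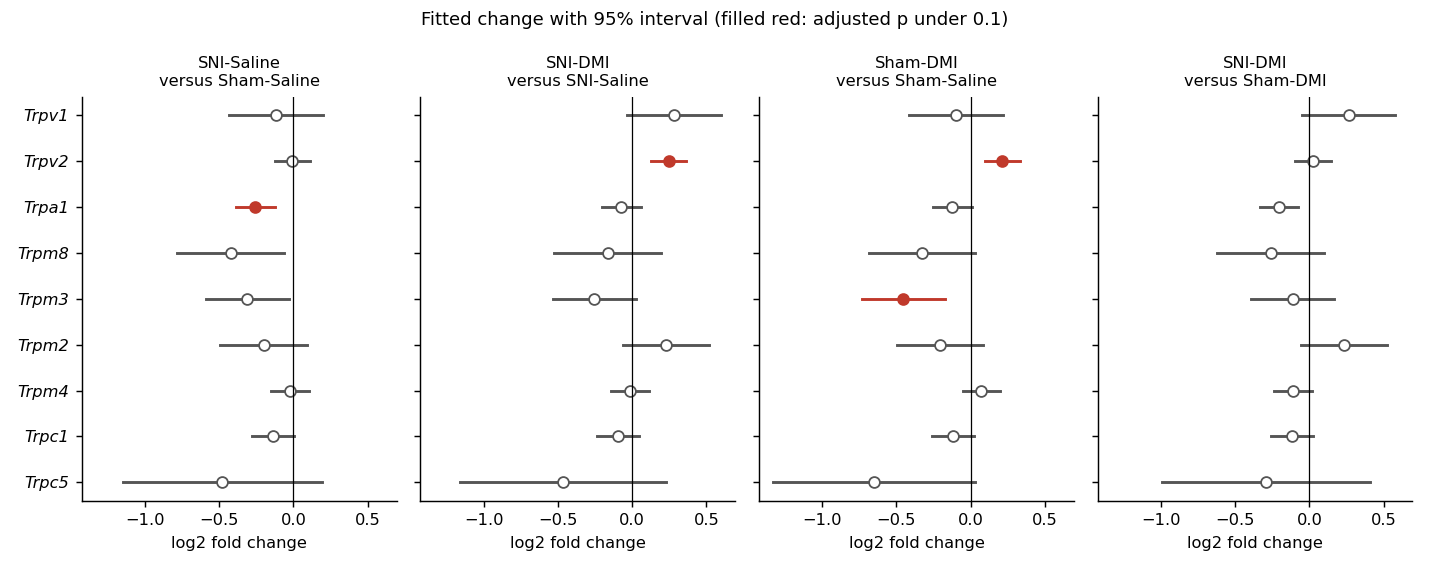
Fitted log2 fold change of each member in 4 comparisons, with the 95% interval as a line and calls at an adjusted p under 0.1 filled in red. Trpa1 was called as lower with injury, Trpv2 as higher with DMI under both surgeries and Trpm3 as lower with DMI in sham mice, and no member was called in SNI-DMI versus Sham-DMI.

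Injury under DMI was assessed by comparing SNI-DMI with Sham-DMI. No member was called by edgeR, where 0.402% of all genes were called. At an unadjusted p under 0.05 there was 1 member, Trpa1, beside 12.1% of all genes, and DESeq2 called the same gene (-0.21, adjusted p = 0.0739). The Trpa1 level was 66.1, 77.2, 71.7 and 73.6 CPM in Sham-DMI and 60.3 to 65.3 CPM in SNI-DMI. The groups did not overlap, as for 5.04% of all genes, and the log2 fold change was -0.20 (SE 0.0621, adjusted p = 0.206), beside -0.26 under saline. Without Sham-DMI replicate 1 it was called (-0.26, adjusted p = 0.0549).

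Trpm8 (-0.26), Trpm3 (-0.11) and Trpc5 (-0.29) had negative log2 fold changes with adjusted p of 0.566, 0.77 and 0.759. Without Sham-DMI replicate 2 these turned to 0.030, 0.038 and 0.17, so the direction of these 3 genes rested on that library. Trpv1 (0.26, SE 0.150, adjusted p = 0.495) and Trpm2 (0.23, SE 0.139, adjusted p = 0.521) had higher means in SNI-DMI.

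The difference between the DMI effects under SNI and under sham was called for 0 of the 9 members and 0 of all 21371 genes by edgeR. DESeq2 called 0 members and 16 of 24105 genes. At an unadjusted p under 0.05 in edgeR's test there was 1 member, and 7.92% of all genes reached that level. That member was Trpm2, with a difference of 0.43 in log2 fold change (adjusted p = 0.619 with an SE of 0.196), and Trpv1 had one of 0.38 (SE 0.212, adjusted p = 0.654). For Trpv2 the difference was 0.033, with a 95% interval from -0.14 to 0.20.

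Trpv1 and Trpm2 followed each other across the mice. By the root-mean-square difference of centred log2 CPM over the 16 libraries, Trpm2 was the gene most like Trpv1 of all tested genes, at 0.0990, followed by Mpp3 (0.101), where the median over all genes was 0.325. Trpv1 CPM ran from 173 (SNI-Saline replicate 4) to 303 (SNI-DMI replicate 4), a 1.75-fold range, and Trpm2 CPM from 41.2 to 71.2, a 1.73-fold range. The ratio of Trpv1 to Trpm2 in CPM per kb stayed between 12.7 and 16, with a coefficient of variation of 7.14%. For comparison, that of Trpv1 to Trpv2 was 17.5% and that of Trpv1 to Trpa1 21.9%.

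The same mice were low for both genes within Sham-Saline, SNI-Saline and Sham-DMI, but not within SNI-DMI. In SNI-DMI the lowest mouse was replicate 1 for Trpv1 (256 CPM) and replicate 3 for Trpm2 (57.1 CPM). The highest was replicate 4 for Trpv1 (303 CPM) and replicate 2 for Trpm2 (71.2 CPM). Sham-Saline replicate 1 was lowest of its group for both genes (179 CPM of Trpv1 and 47.5 CPM of Trpm2), SNI-Saline replicates 3 and 4 were low for both, and Sham-DMI replicate 4 was lowest of its group for both. Trpm2 itself (ENSMUSG00000009292, chr10:77907722-77970563, minus strand) was nearest to Pip5k1b (0.0913) and Mpp2 (0.0924), with Trpv1 in the 5th place. These libraries share depth, preparation and cell composition, and the likeness is a description only.

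**Figure D4:**
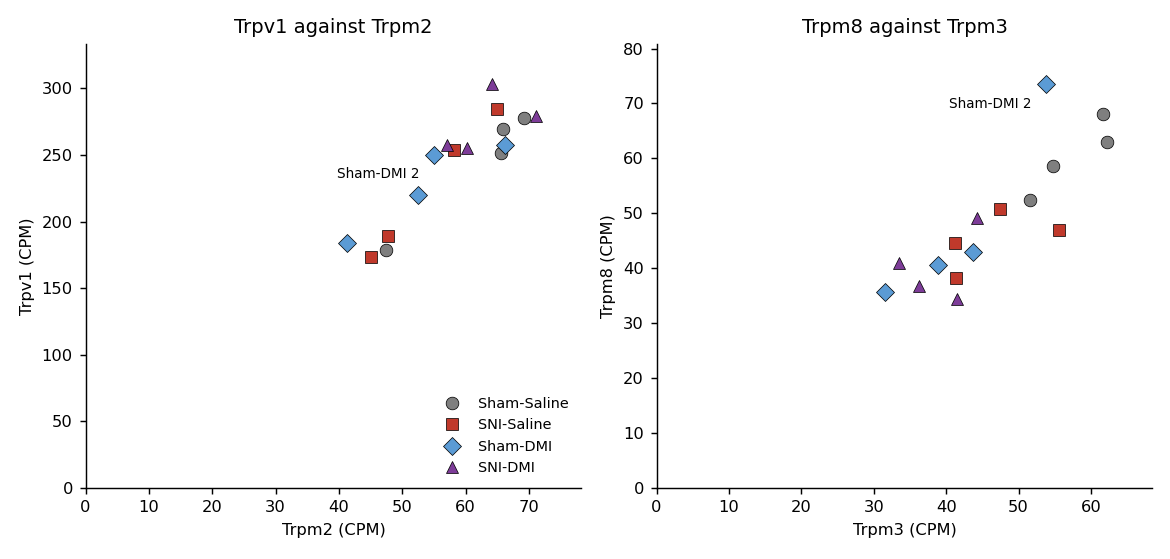
CPM of Trpv1 against Trpm2 and of Trpm8 against Trpm3, with 1 point per mouse and both axes starting at 0. Trpv1 and Trpm2 ranked the mice alike in Sham-Saline, SNI-Saline and Sham-DMI but not in SNI-DMI. Sham-DMI replicate 2 lay at 73.5 CPM of Trpm8 and 53.8 CPM of Trpm3, apart from the other Sham-DMI mice.

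By the same measure, the genes nearest to Trpm3 were Vps13b (0.0733) and Pclo (0.0764), and those nearest to Trpa1 were Ints2 (0.0744) and Kcnj12 (0.0750). Trpv2 was nearest to Hspb8 (0.0529) and Hnrnpm (0.0538), Trpm4 to Nfe2l1 (0.0486) and Ppp2r2c (0.0498), and Trpc1 to Hnrnpll (0.0673) and Zfp518b (0.0678). Trpm8 was nearest to Htr1f (0.153) and Wnk3 (0.153), and Trpc5 to Zfp992 (0.252) and Gm28085 (0.254), at distances that were larger than for the other 7 members. Over all 16 mice, the ratio of the highest to the lowest CPM was smallest for Trpm4 (1.28) and largest for Trpc5 (3.40), followed by Trpm8 (2.14).

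Among 19 other TRP genes, 15 passed the filter on low counts. With injury 2 of the 15 were called, beside 12% of all genes, and with DMI in sham mice 2 of the 15, beside 23.4%. With injury, Pkd2l1, a polycystin-family channel, rose from 6 to 12 reads per library in Sham-Saline to 13 to 32 in SNI-Saline (log2 fold change 1.51, SE 0.396, adjusted p = 0.0368), at a level below 1 CPM in all mice. Trpc6, a diacylglycerol-gated channel, fell from 26.1 ± 3.71 to 21.3 ± 1.22 CPM (-0.29, SE 0.0964, adjusted p = 0.0764). The median log2 fold change of the 15 genes was 0.0099. The Trpc6 call was lost with GC content and length trends removed (adjusted p = 0.149). It was also lost without Sham-Saline replicate 1 (-0.18, adjusted p = 0.257), 3 (adjusted p = 0.114) or 4 (0.135) and without SNI-Saline replicate 1 (0.212), 2 (0.192) or 4 (0.114), so it held in 10 of 16 fits that left out 1 library. Pkd2l1 was not called without Sham-Saline replicate 3 (adjusted p = 0.113) or 4 (0.1) or SNI-Saline replicate 2 (0.117), and held in the other 13.

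With DMI in sham mice, Trpm7, a channel fused to a kinase that conducts magnesium, fell from 71.6 ± 5.92 to 53.3 ± 9.46 CPM (-0.42, SE 0.106, adjusted p = 0.0123). Pkd2, which encodes polycystin 2 of the primary cilium and endoplasmic reticulum, fell from 43.9 ± 3.93 to 34.8 ± 4.80 CPM (-0.33, SE 0.0945, adjusted p = 0.0228). With GC content and length trends removed, Trpm7 was at -0.13 and no longer called (adjusted p = 0.199), and Pkd2 was at -0.22 (adjusted p = 0.0655). Pkd2 was not called without Sham-Saline replicate 3 (-0.25, adjusted p = 0.112).

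In injured mice DMI gave 0 calls among these 15 genes by edgeR, 2 genes at an unadjusted p under 0.05 and 2 calls by DESeq2. The 2 genes were again Trpm7 (-0.32, adjusted p = 0.132) and Pkd2 (-0.28, adjusted p = 0.135). Of all genes, 18.5% had an unadjusted p under 0.05, and DESeq2 called 1859 of 15979. In SNI-DMI versus Sham-DMI there were 0 calls by edgeR and by DESeq2, and 3 genes had an unadjusted p under 0.05, beside 12.1% of all genes.

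Of 20 regulators and partners of TRP channels 19 passed the filter. With injury 2 of the 19 were called, beside 12% of all genes. Prkca (-0.31, SE 0.0660, adjusted p = 0.018) and Prkce (-0.24, SE 0.0704, adjusted p = 0.0555) fell. They encode protein kinase C alpha and epsilon, which sensitize TRPV1. Prkca went from 499 ± 40.2 to 404 ± 21.5 CPM and Prkce from 362 ± 23.1 to 307 ± 5.83 CPM, with no overlap between the groups. The Prkce call was lost with GC content and length trends removed (-0.21, adjusted p = 0.121). It was also lost without Sham-Saline replicate 1 (adjusted p = 0.11), 3 (0.176) or 4 (0.153), and without SNI-Saline replicate 1 (0.17) or 2 (0.144). The median over the 19 genes was -0.049.

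With DMI in sham mice, 4 of the 19 regulators were called, beside 23.4% of all genes, so the share was not above that of all genes. Orai1, the pore of store-operated calcium entry, rose from 14.0 ± 0.511 to 17.1 ± 1.79 CPM (0.29, SE 0.0766, adjusted p = 0.0168). Prkca (-0.19, adjusted p = 0.0542), Prkce (-0.18, adjusted p = 0.0901) and the phospholipase Plcb1 (-0.23, adjusted p = 0.0945) fell, and in these 3 the groups overlapped. These 3 calls were easily lost. Prkca was called in 6 of 8 alternatives and in 8 of 16 fits without 1 library, Prkce in 4 of 8 and 5 of 16, and Plcb1 in 2 of 8 and 3 of 16. With GC content and length trends removed they were at -0.047, -0.10 and -0.037 (adjusted p = 0.703, 0.375 and 0.774), while Orai1 was called (0.24, adjusted p = 0.0271). In the other 2 comparisons 0 regulators were called by edgeR and by DESeq2. At an unadjusted p under 0.05 there were 2 regulators for DMI in injured mice, beside 18.5% of all genes. For injury under DMI there was 1, beside 12.1%.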

How the data were processed

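Whole-number counts per Ensembl gene were deposited, made by the authors from pairs of 50-base reads of stranded mRNA libraries aligned to mm10. Their processing notes name HISAT2, HTSeq and DESeq2, and the strand setting of the counting and the annotation release are not given in the sources used here. Symbols and coordinates came from GENCODE M21 on GRCm38 (52403 of 52636 genes matched).

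Counts were filtered with filterByExpr, scaled by TMM and fitted with edgeR 4.0.16 in R 4.3.3, with 1 coefficient per group over the 16 libraries. Fold changes come from that fit, and p-values were adjusted by Benjamini-Hochberg over 21371 genes. CPM and the likeness measure used normalized library sizes, the latter with a prior count of 2. Exon length is the union of a gene's exons.

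All 9 members are named. From the 2 other lists, genes called at an adjusted p under 0.1 are named (at most 5 per comparison, by smallest p), and for each member the 2 most similar genes. Some genes of those lists are also named where their unadjusted p was given. Members, lists and alternatives were chosen with earlier results of these data known. The alternatives were no filter, at least 10 counts in every library, upper-quartile scaling, DESeq2 1.42.0, a replicate block, the pan-neuronal level as covariate, removal of GC content and length trends (mgcv 1.9.3), the 8 libraries of a comparison alone, and leaving out each library. The procedure was tested on simulated counts for SNI-Saline versus Sham-Saline. Of 100 genes changed by a log2 fold change of 0.32, 23% were called, and of 100 changed by 1, 75%. Of the 110 calls, 10.9% were false. The changed genes were drawn at random from all tested genes, and they were far fewer than the 2571 genes called in the data. These shares thus do not give the chance of a call for the members. A member that was not called is still not shown to be unchanged. No pair of replicates was a duplicate (chi-square per gene between 10.4 and 44.5).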

Additional observations from a re-analysis of the deposited data

Results flagged for a closer look

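Among 36 sets of 4 mice (9 members in 4 groups), 2 held a mouse far from the others of its group by Dixon's test, and chance gives about 1 in 20 such sets (5%). Trpv2 in Sham-DMI replicate 1 was at 123 CPM, where the other 3 mice were at 108 to 110 CPM, so the gap to the nearest mouse was 0.850 of the whole range. Trpm2 in Sham-Saline replicate 1 was at 47.5 CPM, where the other 3 mice were at 65.5 to 69.2 CPM, a gap of 0.857 of the range. The same mouse had the lowest Trpv1 level of Sham-Saline (179 CPM).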

How the results depend on the processing

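Of 351 values recomputed under the alternatives that kept all mice of a comparison, 337 kept their direction and their side of the threshold, and of 720 values without 1 library 669 did. In SNI-Saline versus Sham-Saline, the number of members called was 1, and it was 2 without the filter on low counts, 2 with DESeq2 and 3 with the 8 libraries alone. Of all genes, 2571 of 21371 were called in the main fit and 2094 of 38220 without the filter. DESeq2 called 3390 of 15979 and the fit of the 8 libraries 3434 of 20563. The replicate block gave 2106 of 21371, at least 10 counts in every library 2765 of 18011, and removal of the trends 1042 of 21324. Of the other TRP genes 2 were called, and 1 with at least 10 counts in every library (Pkd2l1 was not tested there), 1 with the replicate block, 1 with GC content and length trends removed and 4 with the 8 libraries alone. Of the regulators 2 were called, and 4 with DESeq2 and 5 with the 8 libraries alone. In SNI-DMI versus SNI-Saline, 1 member was called and 0 with the trends removed, and 0 other TRP genes were called but 2 with DESeq2 and 2 with the 8 libraries alone. Of all genes, 626 of 21371 were called in the main fit and 48 of 21324 with the trends removed. DESeq2 called 1859 of 15979 and the fit of the 8 libraries 1812 of 20452. In Sham-DMI versus Sham-Saline, 4 regulators were called, and 2 without the filter, 2 with the replicate block, 2 with the trends removed and 1 with the 8 libraries alone. Of all genes, 5010 of 21371 were called in the main fit, 4143 of 38220 without the filter and 4739 of 21371 with the block. With the trends removed it was 4111 of 21324 and with the 8 libraries 3742 of 20436. In SNI-DMI versus Sham-DMI, 0 members were called and 1 with DESeq2, which called 502 of 19672 genes. The causes were not tested. DESeq2 gave no adjusted p for Pkd2l1 with injury. Ranks by level per length with the longest transcript were 5 for Trpm4, 6 for Trpc1 and 7 for Trpm2.

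Signs that turned, all of values near 0, were with upper-quartile scaling that of Trpv2 with injury (0.0065), and with the trends removed those of Trpm4 with injury (0.025), Trpa1 with DMI in injured (0.052) and sham mice (0.036), Trpc1 with DMI in sham mice (0.034), Trpv2 with injury under DMI (-0.056), and Trpv2 (-0.00038) and Trpc1 (-0.041) for the difference between the DMI effects.

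Without each library in turn, the number of members called ran from 0 to 3 with injury, 0 to 1 with DMI in injured mice, 2 to 5 with DMI in sham mice, 0 to 1 with injury under DMI and 0 to 0 for the difference. For the other TRP genes these numbers ran from 0 to 4, 0 to 2, 1 to 2 and 0 to 1, and for the regulators from 1 to 5, 0 to 0, 1 to 5 and 0 to 0. The shares of all genes called in these fits are not given here. Signs turned in the fits without 1 library for Trpv2 (-0.035 to 0.033) and Trpm4 (-0.043 to 0.012) with injury, Trpm4 (-0.054 to 0.021) with DMI in injured mice and Trpv1 (-0.21 to 0.0048) with DMI in sham mice. They also turned for Trpv2 (-0.0085 to 0.055), Trpm8 (-0.39 to 0.030), Trpm3 (-0.24 to 0.038) and Trpc5 (-0.52 to 0.17) with injury under DMI, and for Trpv2 (-0.0029 to 0.061), Trpa1 (-0.0038 to 0.10), Trpc1 (-0.029 to 0.097) and Trpc5 (-0.038 to 0.64) for the difference.

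The replicate numbers of the labels mark no stated litter, cage or day. Deviations of same-numbered mice from their group means correlated between -0.081 and 0.18 (median 7.4e-06). Those of other numbers correlated between -0.25 and 0.17 (median 0.0014), and 7 of 16 libraries were closest to a mouse of their own number. The number that chance would give was not computed, so these values do not decide whether the numbers pair the mice. With the replicate block the number of members called was the same in each comparison, Trpc6 with injury had an adjusted p of 0.112, and the counts of the 2 lists are given above. Among the members and the list genes named as called, Trpc5 and Pkd2l1 had the lowest counts and the widest errors.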
